A study of Mus musculus with 12 samples.

Results

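Insulin-like growth factor (IGF) genes were followed in mouse tissue from beside the spine. The members were 2 ligands (*Igf1* and *Igf2*), 2 receptors (*Igf1r* and *Igf2r*) and 6 binding proteins (*Igfbp2* to *Igfbp7*), chosen by gene symbol. These are 10 of the 18996 genes in the count table, and all 10 were among the 14765 genes with enough counts to be tested. Bulk polyA RNA sequencing covered 12 mice, which the methods give as BALB/c and 5 to 7 weeks old, 4 in each of the groups No operation, SHAM and Laminectomy. No operation mice gave soft tissue from beside the spine and had no surgery. In SHAM mice the soft tissue beside the spine was removed and the laminae were left in place, and in Laminectomy mice the laminae and spinous processes were also removed so that the dura lay open. Tissue of both surgical groups was collected 7 days after surgery and by the labels included scar beside the soft tissue. The labels name no transgene and no agent. The tissue was not sorted, so in these bulk samples fewer cells of a type and less RNA per cell cannot be told apart.

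IGF1 and IGF2 are small secreted peptides related to insulin. Both act through the receptor tyrosine kinase IGF1R, which signals through insulin receptor substrates to the PI3K, AKT and mTOR pathway, and in skeletal muscle this route supports fibre growth and repair by muscle stem cells. IGF2R, the cation-independent mannose 6-phosphate receptor, carries lysosomal enzymes and takes up IGF2 for breakdown. Binding proteins hold most IGF outside cells. They lengthen its life or keep it from the receptor until proteases release it, and several also act without IGF. *Igf2* is an imprinted fetal growth gene whose transcript returns in regenerating muscle.

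Upstream sequences of the genes that moved furthest among those with ample counts, *Igf2* (higher after surgery) and *Igfbp6* (lower), and of *Igfbp4*, the binding protein that was higher in both surgical groups, are printed here to show the letters before the start sites of genes that moved in opposite directions. Each is the 250 bases before a start site in RefSeq on GRCm38.p6, read 5′ to 3′ on the gene's strand. *Igf2* has 4 such windows, of which the one nearest its 3′ end (chr7:142657497-142657746, minus strand) and the one farthest from it (chr7:142666817-142667066, minus strand) are given. The others are chr11:99040994-99041243 (*Igfbp4*, plus strand) and chr15:102143936-102144185 (*Igfbp6*, plus strand). Capitals mark matches on either strand to an E-box (CANNTG, the letters bound by MyoD-type factors among others), a TATA box (TATAAA) or a GC box (GGGCGG).
Igf2, nearest the 3′ end: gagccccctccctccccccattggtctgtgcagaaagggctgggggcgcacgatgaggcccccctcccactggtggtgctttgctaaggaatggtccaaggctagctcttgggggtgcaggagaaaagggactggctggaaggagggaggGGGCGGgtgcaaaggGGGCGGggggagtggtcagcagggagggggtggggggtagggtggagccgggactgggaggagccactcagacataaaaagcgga
Igf2, farthest from the 3′ end: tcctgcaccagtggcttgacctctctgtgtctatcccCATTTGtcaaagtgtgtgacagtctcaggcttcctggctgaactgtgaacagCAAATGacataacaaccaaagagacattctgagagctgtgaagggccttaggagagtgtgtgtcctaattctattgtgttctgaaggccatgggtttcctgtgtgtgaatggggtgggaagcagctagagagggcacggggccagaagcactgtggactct
Igfbp4: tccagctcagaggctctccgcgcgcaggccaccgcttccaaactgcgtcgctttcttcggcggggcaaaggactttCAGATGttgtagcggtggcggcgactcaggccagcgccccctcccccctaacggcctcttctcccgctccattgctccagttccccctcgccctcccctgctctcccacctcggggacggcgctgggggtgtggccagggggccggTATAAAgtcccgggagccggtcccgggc
Igfbp6: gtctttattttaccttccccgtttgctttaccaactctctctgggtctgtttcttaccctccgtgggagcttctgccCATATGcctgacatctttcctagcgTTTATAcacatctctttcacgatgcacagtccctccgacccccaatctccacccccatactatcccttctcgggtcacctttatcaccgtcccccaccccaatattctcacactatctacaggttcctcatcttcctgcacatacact
The *Igf2* window nearest the 3′ end held 2 GC boxes and no E-box, and the farthest window held 2 E-boxes and no GC box. *Igfbp4*, which was higher after surgery, and *Igfbp6*, which was lower, each held 1 E-box and 1 TATA box. No printed window had a base in more than 1 of these motifs. Over the 14 windows of the 10 members, 9 held an E-box, 2 a TATA box and 6 a GC box, where 66.2%, 12.4% and 32.7% of the 32851 RefSeq windows of the same length held them. A match is a description of letters and no measure of binding.

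Levels are given as CPM, counts scaled to a common library size. The count on genes lay between 16802988 and 18077863 in each mouse. The No operation tissue was rich in muscle transcripts: 12 markers of mature muscle fibres (*Acta1*, *Ckm*, *Ttn* and others) summed to between 89846 and 125463 CPM there, to 2236 to 8709 CPM after SHAM surgery and to 2918 to 12426 CPM after laminectomy, and all 12 were lower in both surgical groups by the test described below. Fibroblast markers summed to between 8925 and 28262 CPM without surgery, 58959 and 79553 in SHAM mice and 55040 and 68195 in Laminectomy mice, and macrophage markers to between 889 and 2312, 5631 and 10112, and 4013 and 6470 CPM. Some libraries stood apart. SHAM mouse 1 had 6.80 CPM of satellite cell and myoblast markers, where the other SHAM mice had between 1279 and 2193 CPM and No operation mice between 86.1 and 149 CPM, and *Myh3*, the embryonic myosin of new fibres, was at 1.35 CPM in it and between 587 and 1009 CPM in the other SHAM mice. Laminectomy mice 2 and 3 had 376 and 97.9 CPM of neuron and central glia markers, where the other Laminectomy mice had 6.19 and 8.65 CPM and all No operation and SHAM mice had at most 32.3 CPM. Of these markers, *Snap25* of synapses was at 63.1 and 23.7 CPM in Laminectomy mice 2 and 3 and at 0.0529 and 0 CPM in Laminectomy mice 1 and 4, and *Mobp* of oligodendrocytes was at 0 in every SHAM mouse. Cartilage and bone markers summed to between 139 and 1038 CPM without surgery, 10.6 and 155 CPM after SHAM surgery and 737 and 2541 CPM after laminectomy. Tests of members that rest on SHAM mouse 1 or on Laminectomy mice 2 and 3 are given with and without them.

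A call needed an absolute log2 fold change above 0.5 together with p below 0.05 after Benjamini-Hochberg adjustment, in edgeR's quasi-likelihood test fitted over all 12 mice. Against No operation mice, 5 of the 10 members were called in SHAM mice (*Igf2*, *Igf2r* and *Igfbp4* higher, *Igfbp5* and *Igfbp6* lower) and 6 in Laminectomy mice (*Igf2*, *Igf2r*, *Igfbp2* and *Igfbp4* higher, *Igfbp3* and *Igfbp6* lower). Surgery moved much of the transcriptome, so these counts stand near the background: 50.8% of all genes tested were called in SHAM against No operation mice (25.7% higher and 25.1% lower) and 48.6% in Laminectomy against No operation mice (24.2% higher and 24.4% lower). The 4 mice of each group did not overlap for 5 members in SHAM against No operation mice and for 7 in Laminectomy against No operation mice, where 54.5% and 56.0% of all genes did not overlap. The median absolute log2 fold change was 0.926 over the members and 0.636 over all genes in SHAM against No operation mice, and 0.871 and 0.592 in Laminectomy against No operation mice. The signed medians were 0.41 and 0.23 over the members and -0.002 and 0.0093 over all genes. Both comparisons use the same No operation mice, so their values are set side by side and not counted as separate evidence. Without SHAM mouse 1, 5 members were called in SHAM against No operation mice, with *Igfbp2* in place of *Igfbp5*, where 48.2% of all genes were called, and without Laminectomy mice 2 and 3, 4 members were called in Laminectomy against No operation mice, *Igfbp2* and *Igfbp3* being lost, where 45.0% of all genes were called. With an absolute log2 fold change above 1, 3 members were called in each of these comparisons, where 31.1% of all genes were called in SHAM mice and 29.3% in Laminectomy mice.

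**Figure D1:**
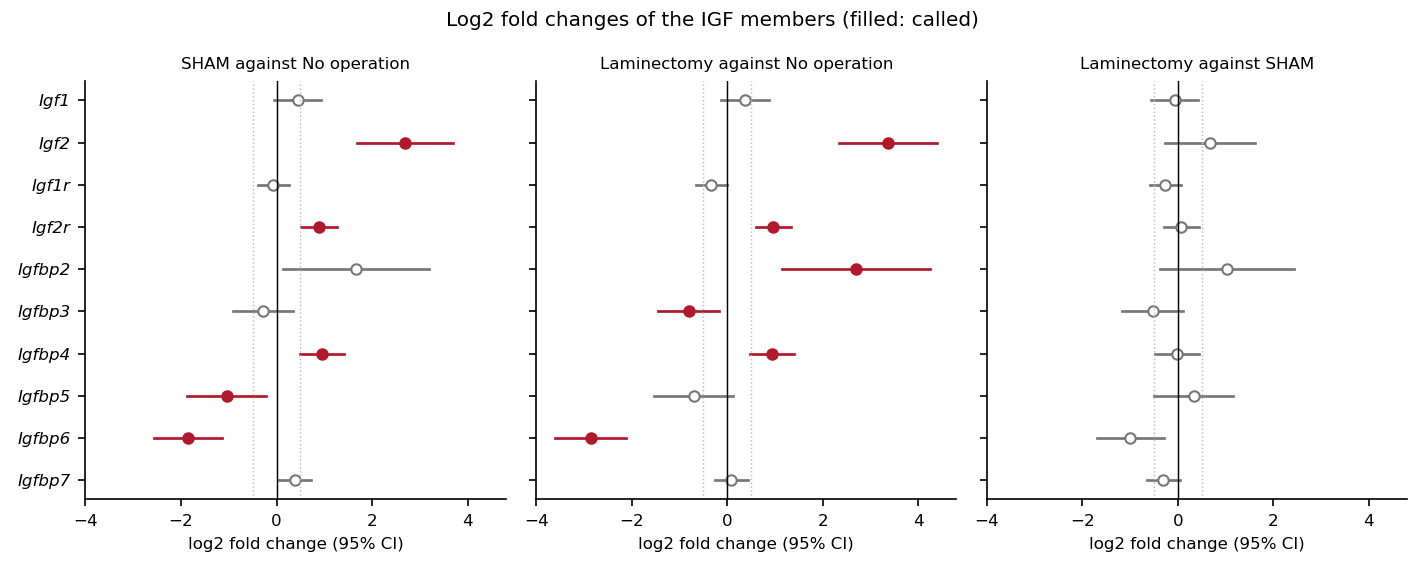
Log2 fold change (x axis, log2 scale) of the 10 IGF members (rows) in the 3 comparisons, with the 95% confidence interval as a line; filled red points are called and open grey points are not, and dotted lines mark a fold change of 0.5 in either direction. *Igf2* (2.69 and 3.37) and *Igfbp6* (-1.86 and -2.85) lay at opposite ends in both comparisons with No operation mice, and no member was called between Laminectomy and SHAM mice.

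*Igf2* (identifier 16002, chromosome 7 of GRCm38, 142650766 to 142666816, minus strand) was higher in both surgical groups, by the widest margin of the members with ample counts. It was at 56.4, 63.7, 61.1 and 88.3 CPM in the No operation group, at 102, 549, 444 and 644 CPM in the SHAM group and at 493, 863, 579 and 851 CPM in Laminectomy mice. Every mouse with surgery lay above every mouse without, and SHAM mouse 1 lay far below the other 7 operated mice. The fold increase was 6.45 in SHAM mice (log2 fold change 2.69, standard error 0.456, 95% confidence interval 1.69 to 3.69, adjusted p = 0.000380, edgeR) and 10.3 in Laminectomy mice (log2 fold change 3.37, standard error 0.469, 2.34 to 4.40, adjusted p = 0.000124, edgeR). Without SHAM mouse 1, the library nearly empty of myoblast markers, the log2 fold change in SHAM mice was 3.02, and without Laminectomy mice 2 and 3 that in Laminectomy mice was 3.32. Of 10 satellite cell and myoblast markers, 6 were called higher in each surgical group (*Myog*, *Mymk*, *Mymx*, *Myh3*, *Myh8* and *Chrng*), as *Igf2* was. *Pax7* (-0.72), *Cdh15* (-0.60), *Myf5* (-0.51) and *Myod1* (-0.40) pointed down in SHAM mice and were not called. In Laminectomy mice these were not called either (0.041, 0.0077, 0.59 and 0.45). The part of the markers in the *Igf2* values was not tested. The annotation holds another protein-coding gene, *Gm49394*, on the same strand over 62.8% of the *Igf2* exon bases, and the antisense gene *Igf2os* over 1.7%. Neither had a row in the table, and reads of these genes and of *Igf2* may not be separable.

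*Igf1* (identifier 16000, chromosome 10, 87858265 to 87937042, plus strand), the ligand made under growth hormone in liver and locally in many tissues, was not called in either group. Its levels were 108, 131, 180 and 96.9 CPM in the No operation group, 171, 185, 197 and 147 CPM in the SHAM group and 105, 169, 198 and 199 CPM in Laminectomy mice, and the groups overlapped. The log2 fold change was 0.44 in SHAM mice (-0.056 to 0.94, adjusted p = 0.111, edgeR) and 0.38 in Laminectomy mice (-0.12 to 0.88, adjusted p = 0.171, edgeR). Both intervals leave room for no change and for increases of up to 0.94 and 0.88 on the log2 scale. Single mice decided this: without No operation mouse 3, which had 180 CPM, *Igf1* was called at 0.64 in SHAM mice (adjusted p = 0.0270) and at 0.58 in Laminectomy mice (adjusted p = 0.0430), and without Laminectomy mouse 1 at 0.55 (adjusted p = 0.0350).

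In all operated mice but SHAM mouse 1, the ligand transcripts lay toward *Igf2*. Per kilobase of exon, the ratio of *Igf2* to *Igf1* was 0.906, 0.838, 0.588 and 1.58 in No operation mice, 1.03, 5.12, 3.89 and 7.57 in SHAM mice and 8.15, 8.85, 5.05 and 7.41 in Laminectomy mice. In SHAM mouse 1 the ratio lay inside the range of No operation mice, and in the other 7 operated mice it lay above that range. Summed over both ligands, the level was 24.8 ± 3.32 CPM per kilobase in No operation mice, 93.6 ± 40.9 in SHAM mice and 139 ± 35.7 in Laminectomy mice (SD, n = 4 each), given as values with no test.

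*Igf2r* (identifier 16004, chromosome 17, 12682406 to 12769664, minus strand) rose in both surgical groups. It was at 226, 142, 163 and 144 CPM in the No operation group, at 280, 263, 313 and 398 CPM in the SHAM group and at 322, 333, 335 and 329 CPM in Laminectomy mice. The groups with surgery did not overlap the group without, and Laminectomy mice lay close together. The fold increase was 1.86 in SHAM mice (log2 fold change 0.89, standard error 0.168, 0.52 to 1.26, adjusted p = 0.000791, edgeR) and 1.95 in Laminectomy mice (0.96, standard error 0.169, 0.60 to 1.33, adjusted p = 0.000540, edgeR). Among the markers of other cells, 10 of 10 macrophage markers were higher in SHAM mice and 9 of 10 in Laminectomy mice, and macrophages are rich in lysosomes. Macrophage markers summed to 10112, 6336, 5631 and 6430 CPM in SHAM mice 1 to 4. In Laminectomy mice 1 to 4 they summed to 6470, 4159, 4656 and 4013 CPM. Mean *Igf2r* was 314 CPM in SHAM mice and 330 CPM in Laminectomy mice. The part of macrophages in the *Igf2r* level was not tested.

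*Igf1r* (identifier 16001, chromosome 7, 67952827 to 68233668, plus strand), the signalling receptor, was not called. Its levels were 83.6, 74.6, 64.7 and 66.7 CPM in the No operation group, 94.1, 56.4, 60.5 and 65.0 CPM in the SHAM group and 56.6, 55.4, 59.3 and 59.4 CPM in Laminectomy mice. SHAM mouse 1 was the highest of all 12, and every Laminectomy mouse lay below every No operation mouse. The log2 fold change was -0.069 in SHAM mice (-0.39 to 0.26, adjusted p = 0.702, edgeR) and -0.33 in Laminectomy mice (-0.65 to -0.0036, adjusted p = 0.0752, edgeR). In SHAM mice the sign turned under upper quartile scaling (0.0027), and without SHAM mouse 1 the value was -0.25 (adjusted p = 0.0483), short of the fold change needed for a call.

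**Figure D2:**
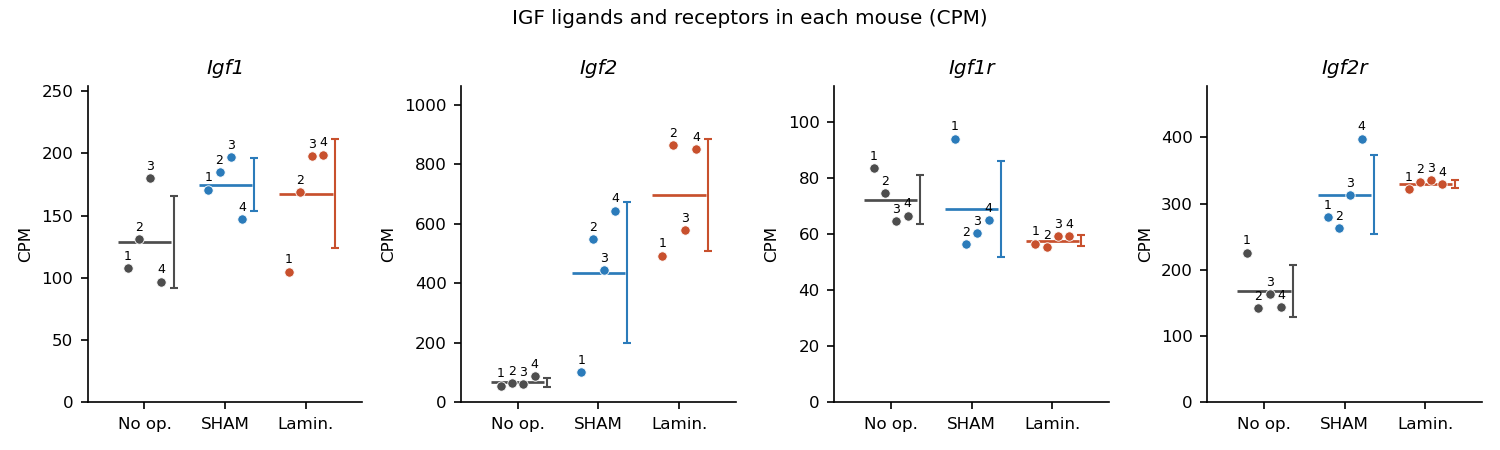
Level (y axis, CPM, linear from 0) of both ligands and both receptors in each mouse, with No op. for No operation and Lamin. for Laminectomy; points are mice with their replicate number, the horizontal line is the group mean and the bar at its right is ± 1 SD. *Igf2* in SHAM mouse 1 (102 CPM) sits near the No operation mice, and *Igf2r* of both surgical groups sits above all No operation mice.

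*Igfbp6* (identifier 16012, chromosome 15, 102144362 to 102149511, plus strand), a binding protein that prefers IGF2, fell in both surgical groups. It was at 210, 198, 432 and 322 CPM in the No operation group, at 63.1, 108, 83.7 and 65.6 CPM in the SHAM group and at 20.1, 43.8, 48.5 and 48.4 CPM in Laminectomy mice. The 3 groups did not overlap, with No operation mice highest and Laminectomy mice lowest. The level was 3.63-fold lower in SHAM mice (log2 fold change -1.86, standard error 0.327, -2.57 to -1.14, adjusted p = 0.000495, edgeR) and 7.23-fold lower in Laminectomy mice (-2.85, standard error 0.340, -3.60 to -2.11, adjusted p = 4.78e-05, edgeR). It was called without SHAM mouse 1 (-1.76) and without Laminectomy mice 2 and 3 (-3.08) as well. Adipocyte markers were also lower, with 4 of 7 called in SHAM mice and 7 of 7 in Laminectomy mice and sums of 2143 to 3699 CPM without surgery, 613, 267, 2402 and 357 CPM in SHAM mice 1 to 4 and 74.2 to 489 CPM after laminectomy. SHAM mouse 3 alone of the operated mice reached the No operation range of these markers, and without it the log2 fold change of *Igfbp6* in SHAM mice was -1.88. All 12 markers of mature fibres were lower in both surgical groups too. The part of adipocytes or of muscle fibres in the *Igfbp6* level was not tested.

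*Igfbp4* (identifier 16010, chromosome 11, 99041244 to 99054392, plus strand), mostly known as an inhibitor of IGF action that is cut by pappalysin, the product of *Pappa*, rose in both surgical groups. It was at 322, 274, 189 and 178 CPM in the No operation group, at 389, 523, 473 and 489 CPM in the SHAM group and at 378, 500, 390 and 577 CPM in Laminectomy mice, with no overlap between mice with and without surgery. The fold increase was 1.95 in SHAM mice (log2 fold change 0.96, standard error 0.211, 0.50 to 1.42, adjusted p = 0.00213, edgeR) and 1.92 in Laminectomy mice (0.94, standard error 0.211, 0.47 to 1.40, adjusted p = 0.00265, edgeR). Between groups, fibroblast markers moved the same way, with 7 of 10 higher and 1 lower in each surgical group. Macrophage markers rose as well. Fibroblast markers summed to 79553, 66454, 71655 and 58959 CPM in SHAM mice 1 to 4. In Laminectomy mice 1 to 4 they summed to 62644, 68195, 61627 and 55040 CPM. The part of either cell type in the *Igfbp4* level was not tested.

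*Igfbp5* (identifier 16011, chromosome 1, 72857932 to 72874884, minus strand), the binding protein with the most counts in No operation mice and one that muscle makes as it differentiates, was at 692, 1002, 1324 and 875 CPM in the No operation group, at 199, 457, 766 and 472 CPM in the SHAM group and at 353, 844, 693 and 501 CPM in Laminectomy mice. SHAM mouse 3 and Laminectomy mice 2 and 3 reached the No operation range. It was called lower in SHAM mice, 2.06-fold (log2 fold change -1.04, standard error 0.381, -1.87 to -0.21, adjusted p = 0.0327, edgeR), and not called in Laminectomy mice (-0.70, -1.53 to 0.13, adjusted p = 0.129, edgeR). The call in SHAM mice was lost without any of SHAM mice 1 (-0.78, adjusted p = 0.0652), 2 (-1.02, adjusted p = 0.0674) and 4 (-1.04, adjusted p = 0.0645) and without No operation mouse 2 (-1.03, adjusted p = 0.0553) or 3 (-0.86, adjusted p = 0.0929). Without Laminectomy mice 2 and 3 the log2 fold change in Laminectomy mice was -1.19 (adjusted p = 0.0619).

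*Igfbp3* (identifier 16009, chromosome 11, 7206086 to 7213923, minus strand), the main IGF carrier of blood, was at 212, 187, 264 and 146 CPM in the No operation group, at 259, 131, 186 and 89.5 CPM in the SHAM group and at 142, 95.7, 107 and 119 CPM in Laminectomy mice. Laminectomy mice lay below all No operation mice, though the highest of them (142 CPM) was just under the lowest No operation mouse (146 CPM), and SHAM mice spread over the whole range. It was called 1.75-fold lower in Laminectomy mice (log2 fold change -0.80, standard error 0.291, -1.44 to -0.17, adjusted p = 0.0319, edgeR) and not called in SHAM mice (-0.28, -0.91 to 0.35, adjusted p = 0.416, edgeR). The call was lost under upper quartile scaling (-0.68, adjusted p = 0.0564), under which the median log2 fold change of all genes was 0.14, and without No operation mouse 1 (adjusted p = 0.0591) or 3 (adjusted p = 0.0943) or Laminectomy mouse 2 (adjusted p = 0.0810), 3 (adjusted p = 0.0720) or 4 (adjusted p = 0.0574).

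*Igfbp2* (identifier 16008, chromosome 1, 72824503 to 72852474, plus strand), a binding protein abundant in fetal tissue, brain and cerebrospinal fluid, was scarce in every mouse. It was at 1.65, 0.504, 0.333 and 0.210 CPM in the No operation group (24, 8, 5 and 3 counts), at 0.899, 3.16, 2.33 and 2.24 CPM in the SHAM group (16, 59, 44 and 42 counts) and at 1.80, 8.07, 5.96 and 1.82 CPM in Laminectomy mice (34, 157, 115 and 35 counts). The highest values were those of Laminectomy mice 2 and 3, the libraries with neuron and glia transcripts. It was called 6.49-fold higher in Laminectomy mice (log2 fold change 2.70, standard error 0.707, 1.15 to 4.25, adjusted p = 0.00642, edgeR), and without Laminectomy mice 2 and 3 the call was lost (1.42, adjusted p = 0.120). Among neuron and glia markers, *Gfap* of astrocytes was at 1.38, 52.7, 18.1 and 0.261 CPM in Laminectomy mice 1 to 4, highest in mouse 2 and next in mouse 3 as *Igfbp2* was. Of 7 neuron and glia markers 2 had enough counts to be tested and 1 (*Gfap*) was called higher in Laminectomy mice, and their part in the *Igfbp2* level was not tested. Without No operation mouse 1, which alone held 24 counts, the log2 fold change was 3.62. In SHAM mice, whose neuron and glia markers summed to between 4.91 and 32.3 CPM, *Igfbp2* was not called (1.67, 0.13 to 3.20, adjusted p = 0.0565, edgeR), and it was called without No operation mouse 1 (2.60, adjusted p = 0.00912), without SHAM mouse 1 (1.93, adjusted p = 0.0378) and under upper quartile scaling, DESeq2 or a fit of these 2 groups alone (1.77, 1.68 and 1.67).

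*Igfbp7* (identifier 29817, chromosome 5, 77349240 to 77408041, minus strand), a low-affinity IGF binder also made by vessel walls, was not called in either group. It was at 315, 291, 277 and 300 CPM in the No operation group, at 376, 396, 445 and 330 CPM in the SHAM group and at 264, 311, 258 and 421 CPM in Laminectomy mice. SHAM mice lay above all No operation mice, by a log2 fold change of 0.39 (0.041 to 0.73, adjusted p = 0.0510, edgeR) that was not called, and Laminectomy mice overlapped both groups (0.083, -0.26 to 0.43, adjusted p = 0.672, edgeR). Endothelial markers summed to between 760 and 957 CPM without surgery, 583 and 807 CPM after SHAM surgery and 534 and 824 CPM after laminectomy. *Polr2b*, on the opposite strand, covers 7.0% of the *Igfbp7* exon bases, and featureCounts at its default settings counts without strand. Not all count values were whole, so how reads of *Polr2b* were handled here is not known.

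**Figure D3:**
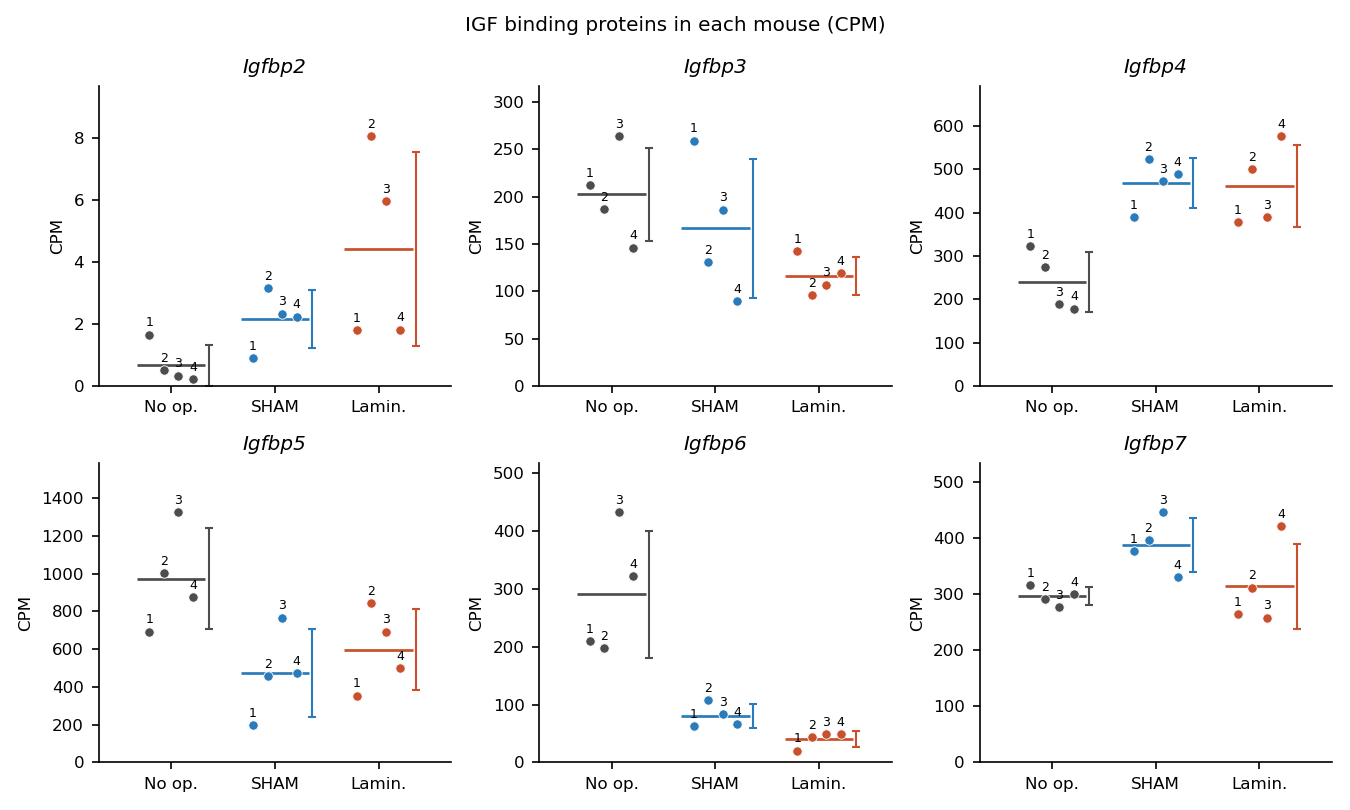
Level (y axis, CPM, linear from 0, with its own range in each panel) of the 6 binding proteins in each mouse; points are mice with their replicate number, the horizontal line is the group mean and the bar at its right is ± 1 SD. *Igfbp6* falls from No operation to SHAM to Laminectomy mice without overlap, and the 2 high *Igfbp2* values are Laminectomy mice 2 (8.07 CPM) and 3 (5.96 CPM).

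Levels of different genes were compared per kilobase of exon (CPM per kilobase). In No operation mice *Igfbp6* (261) and *Igfbp7* (245) were highest and overlapped, followed by *Igfbp5* (162), *Igfbp3* (64.6) and *Igfbp4* (54.5), then *Igf2r* (18.2), *Igf1* (13.0) and *Igf2* (11.8), then *Igf1r* (4.31) and *Igfbp2* (0.366). *Igfbp3* and *Igfbp4* overlapped there, and so did *Igf2r*, *Igf1* and *Igf2* as neighbours. In Laminectomy mice *Igfbp7* (259) stood alone at the top, *Igf2* (122), *Igfbp4* (104) and *Igfbp5* (99.5) followed as overlapping neighbours, and *Igfbp6* (36.2) lay with *Igfbp3* (37.0) and *Igf2r* (35.4). SHAM mice had *Igfbp7* (320) first, and *Igfbp4* (106), *Igfbp5* (78.8), *Igf2* (75.9), *Igfbp6* (72.1), *Igfbp3* (53.2) and *Igf2r* (33.7) then overlapped neighbour by neighbour. *Igf1r* and *Igfbp2* came last in all 3 groups. With the length of the longest transcript in place of all exon bases, the levels in No operation mice moved to 18.3 for *Igf1*, 14.3 for *Igf2*, 6.35 for *Igf1r* and 83.5 for *Igfbp3*, and the order of the means stayed the same.

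*Igfbp6* was the leading or next binding protein transcript in No operation mice and a minor one in Laminectomy mice. Summed over the 6 binding proteins, the level was 788 ± 123 CPM per kilobase in No operation mice, 631 ± 86.6 in SHAM mice and 539 ± 95.8 in Laminectomy mice (SD, n = 4 each). *Igfbp6* made up 32.4% ± 7.59 of this sum in No operation mice, 11.4% ± 2.24 in SHAM mice and 6.62% ± 1.85 in Laminectomy mice, without overlap between any of the groups. *Igfbp4* made up 7.19% ± 2.82, 17.0% ± 2.52 and 19.3% ± 1.14, and *Igfbp7* 31.7% ± 5.66, 50.8% ± 2.38 and 48.0% ± 5.43, both with No operation mice below all others. *Igfbp3* held a like share in the 3 groups, at 8.20% ± 1.51, 8.51% ± 4.15 and 7.14% ± 2.40. *Igfbp5* was at 20.4% ± 3.40, 12.2% ± 4.88 and 18.5% ± 5.93, with the lowest share (5.79%) in SHAM mouse 1. These shares are transcripts, given as values with no test, and a share rises when another member falls.

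**Figure D4:**
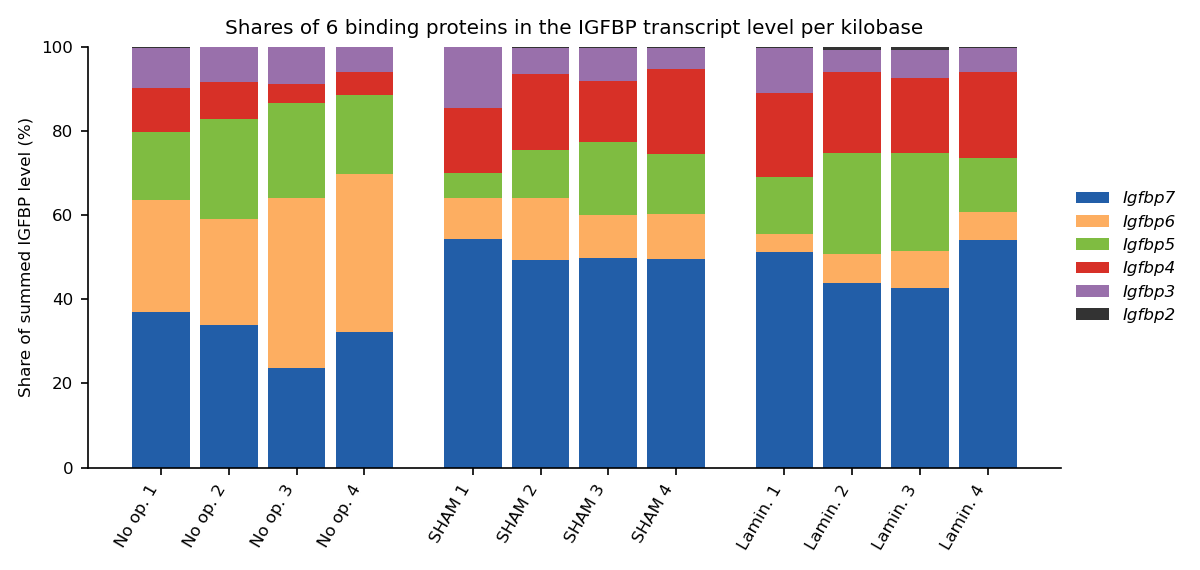
Share (y axis, percent) of each of 6 binding proteins in their summed level per kilobase of exon, 1 stacked bar per mouse, with No op. for No operation and Lamin. for Laminectomy. The *Igfbp6* segment shrinks from between 25.2% and 40.3% in No operation mice to between 4.24% and 8.76% in Laminectomy mice, while *Igfbp4* and *Igfbp7* widen.

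Laminectomy against SHAM mice asks what opening the spinal canal adds to soft tissue injury. No member was called, and 0% of all genes tested were called by edgeR (0 of 14765), while 16.0% had an unadjusted p below 0.05 and the mice of the groups did not overlap for 10.1%. DESeq2 called 601 genes, 4.08% of those it gave an adjusted p, and none of the 10 members. *Igfbp6* alone had an unadjusted p below 0.05, and it alone did not overlap, with 63.1 to 108 CPM in the SHAM group and 20.1 to 48.5 CPM in the Laminectomy group. Its log2 difference was -1.0 (standard error 0.321, -1.70 to -0.29), with an adjusted p = 0.176 by edgeR. With DESeq2 the adjusted p of *Igfbp6* was 0.0546. *Igf2* differed by 0.68 (-0.26 to 1.62, adjusted p = 0.458, edgeR), and by 0.36 without SHAM mouse 1. *Igfbp2* differed by 1.03 (-0.37 to 2.43, adjusted p = 0.453, edgeR), and by -0.25 without Laminectomy mice 2 and 3. For *Igf2r* (0.073, -0.29 to 0.44), *Igfbp4* (-0.023, -0.48 to 0.44) and *Igf1* (-0.065, -0.56 to 0.43) the intervals hold 0, as they do for *Igfbp3* (-0.52, -1.16 to 0.11) and *Igfbp5* (0.34, -0.49 to 1.16), where they are wider. Those of *Igf1r* (-0.26, -0.58 to 0.065) and *Igfbp7* (-0.30, -0.65 to 0.042) also hold 0. Without Laminectomy mouse 4, *Igfbp7* differed by -0.48 (adjusted p = 0.143, edgeR).

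By root mean square difference of log2 CPM, each gene centred on its mean over the 12 mice, the genes most like *Igf2* among 10627 were *Ppfia4* (0.344), *Capn6* (0.485) and *Col23a1* (0.501). *Ppfia4* was between 5.47 and 8.25 CPM in the No operation group, at 9.33 CPM in SHAM mouse 1 and between 31.1 and 53.8 CPM in the other operated mice. *Capn6* was at 28.1 CPM in SHAM mouse 1 and between 90.6 and 175 CPM in the other operated mice. For *Igfbp6* they were *Prelp* (0.408), *Lims2* (0.413) and *Egflam* (0.420), all highest in No operation mice, and *Prelp* was between 475 and 831 CPM there, 166 and 239 CPM after SHAM surgery and 64.8 and 169 CPM after laminectomy. For *Igf1* they were *Fbln5* (0.221), *Mtmr12* (0.234) and *Cacna1g* (0.235), with log2 fold changes between 0.11 and 0.54 against No operation mice.

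Other genes of the pathway were taken from 5 lists of 58 genes, of which 51 were tested. Against No operation mice, 15 were higher and 16 lower in SHAM mice (60.8% called, where 50.8% of all genes were) and 13 were higher and 18 lower in Laminectomy mice (60.8%, where 48.6% of all genes were). Without SHAM mouse 1, 30 were called in SHAM mice (48.2% of all genes in that fit), and without Laminectomy mice 2 and 3, 31 were called in Laminectomy mice (45.0% of all genes in that fit). The counts by list that follow stand beside 25.7% of all genes higher and 25.1% lower in SHAM mice, and 24.2% higher and 24.4% lower in Laminectomy mice. The median log2 fold changes in SHAM and Laminectomy mice were -0.11 and -0.52 for genes that cut or carry binding proteins, -0.31 and -0.37 for receptor and signalling genes, -1.04 and -0.94 for the growth hormone axis, 1.50 and 0.71 for *Igf2* mRNA binders and 1.59 and 1.22 for imprinted growth genes, where they were -0.002 and 0.0093 over all genes. Markers of mature fibres and of adipocytes fell in the same comparisons, as given above, and their part in these values was not tested.

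Among 11 genes that cut or carry binding proteins, 8 were tested, with 3 higher and 2 lower in SHAM mice and 2 higher and 4 lower in Laminectomy mice. *Igfals*, the acid-labile subunit of the circulating IGF complex, was at 6.62, 15.6, 12.7 and 14.9 CPM in the No operation group, at 1.69, 0.321, 5.77 and 0.961 CPM in the SHAM group and at 0.265, 0.925, 0.932 and 0.834 CPM in Laminectomy mice (log2 fold changes -2.50 and -4.06, adjusted p = 0.00755 and 0.000746, edgeR). SHAM mouse 3, the one with adipocyte markers in the No operation range, was the highest of the SHAM group, and without it the log2 fold change in SHAM mice was -3.65. *Adam12*, a metalloprotease that can cut *Igfbp3* and *Igfbp5* products, rose to 263 ± 23.5 CPM in SHAM mice and 235 ± 27.5 CPM in Laminectomy mice from 47.4 ± 55.1 CPM (SD, n = 4 each; adjusted p = 0.00762 and 0.0112, edgeR), with 127 CPM in No operation mouse 1 alone. *Igfbp1*, a binding protein made by liver, was listed at 0 in all No operation and SHAM mice and was not tested. *Pappa2*, a protease related to *Pappa*, fell by 1.68 and 2.32 on the log2 scale (adjusted p = 0.0317 and 0.00776, edgeR), and SHAM mice overlapped No operation mice.

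*Pappa*, the protease of *Igfbp4*, was at 3.72, 4.53, 3.93 and 3.72 CPM in the No operation group, at 7.42, 4.49, 7.89 and 6.35 CPM in the SHAM group and at 27.2, 14.0, 17.4 and 11.1 CPM in Laminectomy mice. It was called higher in both groups against No operation mice (0.72 and 2.13, adjusted p = 0.0372 and 7.90e-05, edgeR), and without SHAM mouse 1 or 3 the call in SHAM mice was lost (0.65 and 0.62, adjusted p = 0.0829 and 0.0926). Between Laminectomy and SHAM mice it did not overlap, by 1.41 on the log2 scale (standard error 0.266, adjusted p = 0.0969, edgeR), which edgeR did not call and DESeq2 did (1.42, adjusted p = 0.000265). DESeq2 called 4 of the pathway genes in this comparison, where it called 4.08% of all genes, the others being *Htra3* (-0.91), *Jak2* (-0.66) and *Igf2bp3* (-0.95), all lower in Laminectomy mice. *Htra3*, *Jak2* and *Igf2bp3* are named for this DESeq2 count after their values were seen. edgeR called none of the 51, with 10 at an unadjusted p below 0.05, as 16.0% of all genes were.

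Receptor and intracellular signalling genes had 29 of 30 tested, with 6 higher and 11 lower in each surgical group. The substrate *Irs1* fell from 174 ± 49.9 CPM to 36.7 ± 12.3 CPM in SHAM mice and 60.2 ± 15.5 CPM in Laminectomy mice (log2 fold changes -2.25 and -1.53, adjusted p = 7.30e-05 and 0.000931, edgeR). *Foxo4* (-1.82 and -1.75), a transcription factor held back by AKT, and *Pik3r1* (-1.37 and -1.54), a regulatory subunit of PI3K, also fell, and *Ptpn1* (1.50 and 1.02), a phosphatase that damps insulin receptor signalling, rose. An unlisted strand partner, *Gm9747*, covers 30.9% of the *Irs1* exon bases. Of 6 growth hormone axis genes, 3 were lower in both groups and 0 higher. *Ghr*, the growth hormone receptor, fell from 376 ± 84.4 CPM to 100 ± 49.2 CPM in SHAM mice and 71.0 ± 21.7 CPM in Laminectomy mice (-1.91 and -2.40, adjusted p = 0.000514 and 0.000147, edgeR). It was highest among SHAM mice in mouse 3 as well, at 172 CPM, and without that mouse the log2 fold change was -2.30. Also lower were *Stat5b* (-1.44 and -1.68) and its target *Cish* (-1.66 and -2.44). No operation mouse 4 had 6.45 CPM of *Cish*, so No operation mice overlapped both surgical groups in it.

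Of 6 imprinted growth genes tested, 4 were higher in each surgical group. *Mest* was at 30.3, 21.3, 11.3 and 8.76 CPM in the No operation group, at 106, 431, 311 and 512 CPM in the SHAM group and at 576, 700, 614 and 609 CPM in Laminectomy mice, and SHAM mouse 1 was again the lowest of the operated mice (log2 fold changes 4.25 and 5.12, adjusted p = 3.93e-05 and 2.16e-05, edgeR). Without SHAM mouse 1 the log2 fold change of *Mest* in SHAM mice was 4.54. *Plagl1* (2.20 and 2.22), a zinc finger factor, and *Cdkn1c* (0.98 and 1.09), a cell cycle inhibitor, rose as well. *Dlk1* rose by 2.20 and 1.35, and in it SHAM mouse 1 was the highest at 58.3 CPM, where Laminectomy mouse 1 had 5.29 CPM, below all No operation mice. Without Laminectomy mice 2 and 3, *Dlk1* was not called in Laminectomy mice (1.09, adjusted p = 0.117). *Peg3* (-0.11 and 0.38) and *Ndn* (-0.096 and -0.19) were not called. Exons of *Copg2* on the opposite strand cover 23.1% of *Mest*, and those of *Gm44732* cover 30.7% of *Cdkn1c*. Of 3 genes that bind *Igf2* mRNA, 2 were tested, and both were higher in SHAM mice and 1 in Laminectomy mice. *Igf2bp2* rose from 6.48 ± 5.92 CPM to 23.2 ± 7.47 CPM in SHAM mice and 15.0 ± 2.32 CPM in Laminectomy mice (1.84 and 1.21, adjusted p = 0.00483 and 0.0381, edgeR), and without Laminectomy mice 2 and 3 the call in Laminectomy mice was lost (1.36, adjusted p = 0.0753).

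**Figure D5:**
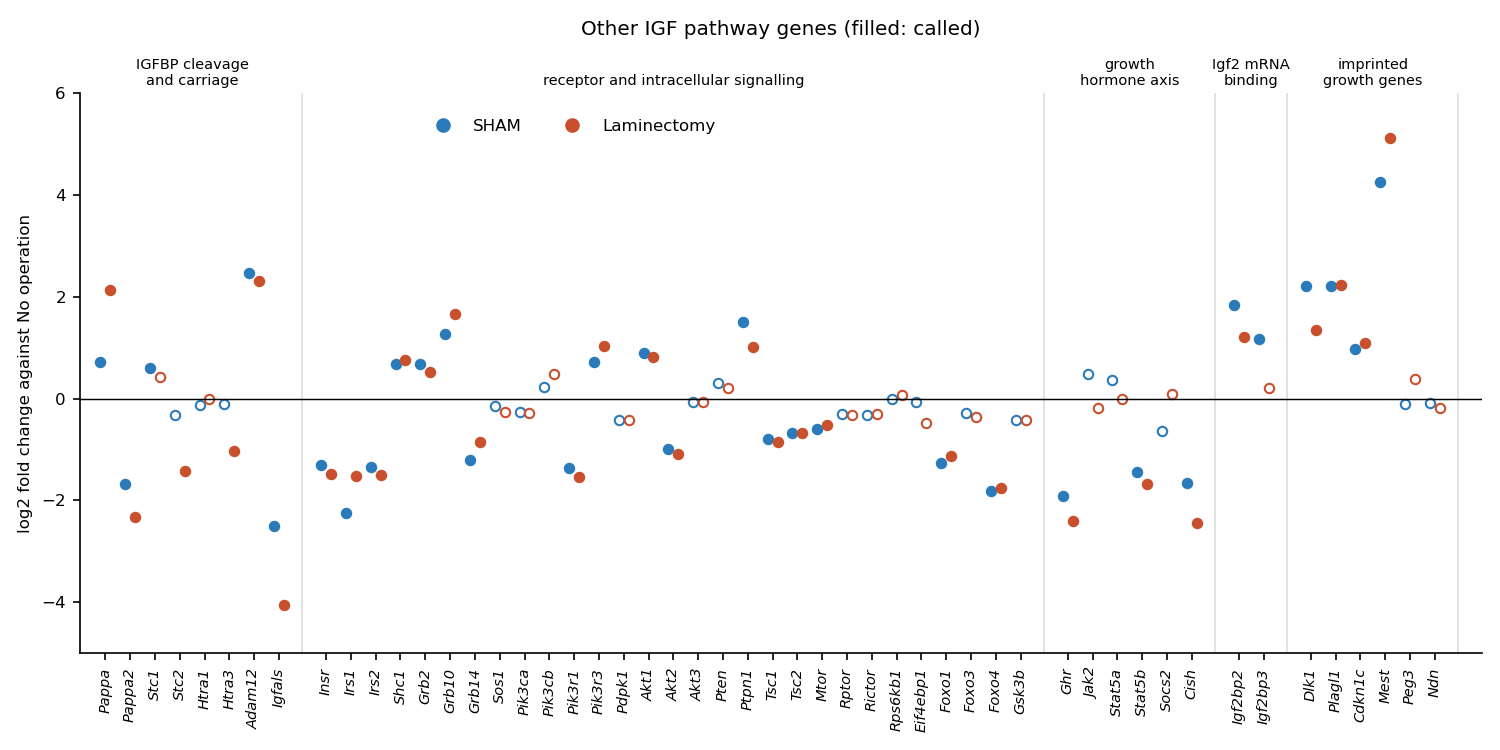
Log2 fold change against No operation mice (y axis, log2 scale) of the 51 other IGF pathway genes tested (x axis, by list), with SHAM in blue and Laminectomy in orange; filled points are called and open points are not. *Mest* is the highest in both groups (4.25 and 5.12), *Igfals* the lowest (-2.50 and -4.06), and *Pappa* shows a wide gap between SHAM (0.72) and Laminectomy (2.13) mice.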

How the data were processed

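The authors prepared stranded mRNA libraries, aligned reads with STAR 2.6.1b to GRCm38, and counted reads per gene with featureCounts 2.0.1 at default settings. They deposited estimated counts for 18996 genes in 12 mice without normalization: 10.2% of the values were not whole. No step that makes fractions is given in the sources used here. Values were rounded, which changed none by more than 0.5. Groups came from the labels. The series' design text says that 3 libraries per group were kept for the study's own tests, chosen by RNA integrity and sequencing metrics, without naming them, so all 4 were used.

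Low counts were removed with filterByExpr, which left 14765 genes, and TMM scaling was applied (factors 0.849 to 1.134). All 12 mice entered a single quasi-likelihood fit in edgeR 4.0.16 (R 4.3.3), with Benjamini-Hochberg adjustment over all genes tested, and the script was tested on simulated data. The common dispersion was 0.0799, a biological coefficient of variation of 28.3%. CPM used the TMM-scaled library size. Depth covers counting error only, since reads carried no molecular identifiers. Exon lengths and overlaps came from the GENCODE annotation of GRCm38, where 18490 gene numbers matched. DESeq2 1.42.0, other scalings, no low-count filter, a fit of only the groups compared, a replicate block and leaving out mice were alternatives. The fit without Laminectomy mice 2 and 3 was chosen after seeing the data. The members and gene lists were chosen with earlier results of these data known. Named genes were all members and, of each pathway list, up to 4 genes called in the same direction in both surgical groups with at least 10 CPM in the higher group and the largest change in SHAM mice. For *Igf1*, *Igf2* and *Igfbp6*, the 3 genes nearest in pattern, of those with at least 10 CPM on average, were named as well. *Htra3*, *Jak2*, *Igf2bp3*, *Peg3*, *Ndn*, *Igfbp1* and the marker genes named singly do not meet this rule, and their values were known when they were picked. *H19* and *Meg3* were listed but had no row in the count table, so they could not be analysed.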

Additional observations from a re-analysis of the deposited data

Results flagged for a closer look

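*Igfbp6* in Laminectomy mouse 1 was 20.1 CPM, far below the other Laminectomy mice (43.8 to 48.5 CPM). Its gap to the nearest mouse was 0.833 of the group's range, just past Dixon's limit for 4 values. It was the 1 value past it among the 30 groups examined (10 members in 3 groups), and chance alone passes it in about 1 of 20 groups. Without this mouse, *Igfbp6* was still called lower in Laminectomy against No operation mice, by a log2 fold change of -2.63.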

How the results depend on the processing

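Of 180 log2 fold changes of members recomputed under other scalings, filters, tools or fits, 173 kept their direction and their side of the call, 1 lost a call, 4 gained one and 2 turned: *Igf1r* in SHAM against No operation mice (0.0027) and *Igfbp4* in Laminectomy against SHAM mice (0.029), both under upper quartile scaling. Of 240 recomputed without 1 mouse, 217 kept both, 10 lost a call, 5 gained one and 8 turned. The ranges that cross 0 were -0.25 to 0.018 for *Igf1r* in SHAM against No operation mice, -0.091 to 0.17 for *Igfbp7* in Laminectomy against No operation mice, and, in Laminectomy against SHAM mice, -0.16 to 0.11 for *Igf1*, -0.0034 to 0.21 for *Igf2r* and -0.15 to 0.061 for *Igfbp4*. Without Laminectomy mice 2 and 3, *Igfbp2* (-0.25), *Igfbp4* (0.028) and *Igfbp5* (-0.15) turned in Laminectomy against SHAM mice, where none was called. With an absolute log2 fold change above 1, 3 members were called in each comparison with No operation mice, and 20 and 24 pathway genes in SHAM and Laminectomy against No operation mice in place of 31 each (31.1% of all genes in SHAM and 29.3% in Laminectomy against No operation mice). DESeq2 called 4 pathway genes in Laminectomy against SHAM mice where edgeR called 0; the cause was not tested. Same-numbered mice of different groups correlated between -0.228 and 0.352, with 7 of 12 pairs over 0.1, and in 10 of 24 combinations of a mouse with another group the best correlated mouse had the same number. Since 5 pairs were not over 0.1 and no label ties the numbers to a litter or day, the numbers were not taken as pairing the mice. With the replicate block, *Igfbp5* was called in Laminectomy against No operation mice (-0.73, adjusted p = 0.0153) and no other member changed its call. *Igfbp2* rests on 3 to 24 counts per mouse in the No operation group.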
